A study of Mus musculus with 9 samples.

Results

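Among the genes listed as changed in aging and 3HB-treated mouse kidney were 10 members of the non-classical MHC class I family, whose symbols begin with H2-Q, H2-T or H2-M. They were taken by name from 489 distinct genes in 2 tables of called genes, and comprised 5 Q genes (H2-Q2, H2-Q4, H2-Q6, H2-Q7 and H2-Q10), 4 T genes (H2-T10, H2-T22, H2-T23 and H2-T-ps) and H2-M2. All 10 were among the 389 genes listed for young against old mice, and H2-Q4 and H2-Q10 were also among the 113 genes listed for 3HB against old mice. The kidneys came from male mice of the outbred ICR stock in 3 groups of 3: young mice (2 months), untreated old mice (20 months), and mice of 20 months whose drinking water had held the ketone body 3-hydroxybutyrate (3HB) at 1 g/L since the age of 11 months. The labels name no genetic change in these mice. The RNA-seq methods name muscle and the sample labels name kidney. Of 14 kidney markers, Keg1 and Lrp2 were listed, and they summed to 1144.83 to 1753.24 in young, 792.19 to 1051.75 in old and 1000.89 to 1445.4 in 3HB mice, while none of 7 skeletal muscle markers was listed. Keg1 was lower in old than in young mice (log2 difference -0.69, SE 0.22) and Lrp2 higher in 3HB than in old mice (0.66, SE 0.088). Each was without overlap, as were 92.5% of genes listed for age and 89.4% of those listed for 3HB. These directions were opposite to the Q genes described here. In the other contrast both overlapped, Keg1 at 0.35 (SE 0.22) with 3HB and Lrp2 at 0.18 (SE 0.26) with age, the latter in the direction of the Q genes. The part of kidney cells in the Q values was not tested. The values are normalized expression values made with StringTie, which reports TPM or FPKM. Both are scaled by transcript length, and which of them was used is not stated. Read totals are not given, so the depth behind a value is unknown, and precision comes from 3 mice a group.

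Class I molecules are cell surface proteins with a heavy chain that usually pairs with β2-microglobulin. The classical molecules H2-K and H2-D show peptides from inside the cell to CD8 T cells, whereas the Q, T and M regions of the same complex encode less polymorphic, class Ib molecules with narrower roles. H2-Q6 and H2-Q7 encode forms of Qa-2, which can be held on the membrane by a lipid anchor, and H2-Q10 encodes a secreted molecule made mainly in liver. H2-T23 encodes Qa-1, the ligand of the inhibitory receptor CD94/NKG2A on natural killer cells, and H2-T10 and H2-T22 encode molecules that are seen by γδ T cells. Interferon is known to raise the expression of many class I genes. In bulk kidney, a change in the number of cells that express a gene and a change in RNA per cell cannot be told apart.

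The 10 genes lie on chromosome 17 (GRCm38, GENCODE release 21). The 5 Q genes are read from the plus strand and span 132 kb (chr17:35342242-35474563). The 4 T genes are on the minus strand within 91.7 kb (chr17:36029773-36121465). They stand in 2 neighbouring pairs, H2-T23 with H2-T22 in 13.0 kb and H2-T-ps with H2-T10 in 12.2 kb, with 66.5 kb between the pairs. H2-T10 is annotated as a polymorphic pseudogene and H2-T-ps as an unprocessed pseudogene, and the other 8 genes are annotated as protein coding. H2-M2 lies farther along (chr17:37480851-37483552, minus strand).

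Each T pair repeats the other in sequence. The reference transcripts of H2-T22 and H2-T10 were identical at 1603 of 1651 aligned bases (97.1%), and those of H2-T23 and H2-T-ps at 1021 of 1067 (95.7%). Between Q genes the identity was 66.6 to 86.2%, and between Q and T genes 59.1 to 80.3%. A stretch of 60 bases from each pair is given 5′ to 3′, with the bases that differ in capitals. It was chosen as the stretch with the most differences inside the coding part of H2-T22 or H2-T23. It therefore overstates how much the copies differ. It runs from base 754 to 813 of the H2-T22 transcript (693 to 752 in H2-T10), with 4 differences, and from base 621 to 680 of H2-T23 (436 to 495 in H2-T-ps), with 10.
H2-T22 transcript: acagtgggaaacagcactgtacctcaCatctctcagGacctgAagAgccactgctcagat
H2-T10 transcript: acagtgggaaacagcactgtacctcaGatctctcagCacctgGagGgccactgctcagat
H2-T23 transcript: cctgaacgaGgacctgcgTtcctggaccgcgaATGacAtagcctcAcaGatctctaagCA
H2-T-ps transcript: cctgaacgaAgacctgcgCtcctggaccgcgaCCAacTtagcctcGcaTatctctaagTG

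Stretches of 100 bases that occur exactly in another gene's transcripts made up 7.06% of the H2-T10 windows (all of them shared with H2-T22) and 8.86% of those of H2-T22. They were 3.15% for H2-T23, 5.37% for H2-T-ps, between 2.16 and 12.0% for the Q genes and none for H2-M2. How the authors assigned reads that match several copies is not given in the sources used here, and the reads of ICR mice were aligned to a reference from another strain. The values of all members other than H2-M2 are uncertain to the extent that reads could be split between copies. The alleles of these mice were not analysed here. Whether young and old mice of this outbred stock carried the same alleles is not known, and for all 10 members a difference in age and a difference in alleles cannot be told apart.

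The near copies among the T genes differed in opposite directions between young and old mice. H2-T22 was at 50.90, 55.18 and 47.43 in the young mice (mice 1, 2 and 3 in this order here and in what follows) and at 10.35, 10.02 and 11.14 in the old mice. Its near copy H2-T10 was at 1.01, 1.30 and 0.45 in the young and at 26.47, 28.13 and 24.10 in the old. The groups were far apart in both genes and in opposite directions. On the log2(value + 1) scale, H2-T22 was lower in old mice by a difference of -2.18 (SE 0.074) and H2-T10 higher by 3.85 (SE 0.21). As the 10 genes were listed for this same contrast, differences between young and old mice are a description. For 9 of the 10 genes no old mouse fell within the range of the young, beside 92.5% of all 389 listed genes. H2-T22 ranked 14 among the 389 genes from the most negative difference, and H2-T10 ranked 36 from the most positive.

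H2-T23 and H2-T-ps showed the same arrangement. H2-T23, the Qa-1 gene, was at 66.63, 73.42 and 58.32 in the young mice and at 26.03, 27.55 and 43.58 in the old, a log2 difference of -1.04 (SE 0.25). H2-T-ps was at 2.25, 0.67 and 1.89 in the young and 23.22, 22.60 and 21.86 in the old (log2 difference 3.23, SE 0.30). The groups did not overlap in either gene. The 2 genes nearest the Q cluster, H2-T23 and H2-T22, were thus lower in old mice, and the 2 genes of the distal pair, which the reference calls pseudogenes, were higher.

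**Figure D1:**
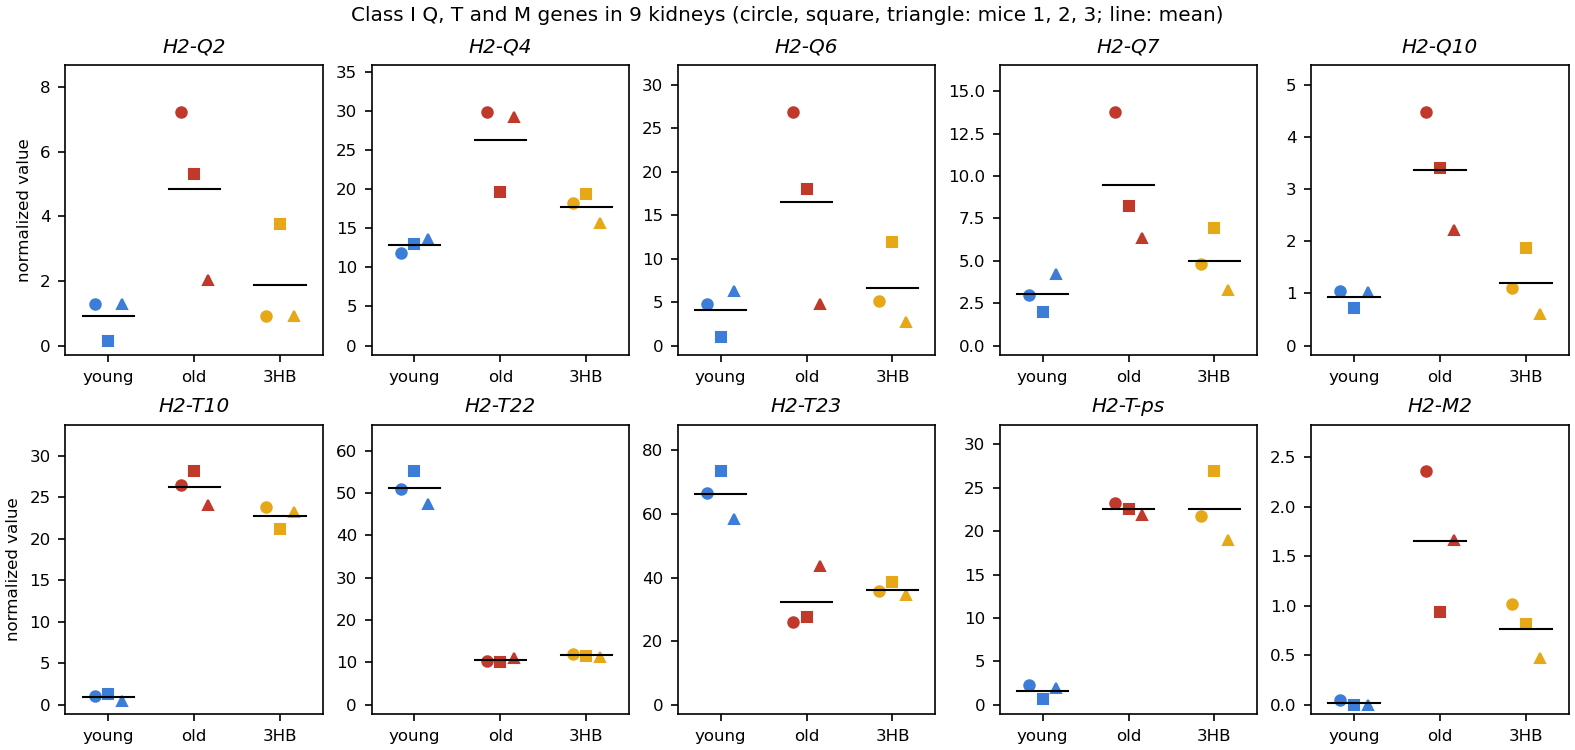
Normalized value (y axis, linear) of the 10 genes in each of the 9 mice, by group (x axis: young, old, 3HB). Circles, squares and triangles are mice 1, 2 and 3 of a group and lines are group means. H2-T10 and H2-T-ps lie at 0.45 to 2.25 in young mice and at 19.05 to 28.13 in the 6 mice of 20 months.

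When the values of 2 near copies were added, the change was smaller than in either gene. H2-T22 plus H2-T10 came to 51.91, 56.48 and 47.88 in young mice and 36.82, 38.15 and 35.24 in old mice, so the old mean was 70.5% of the young mean. H2-T10 made up 0.94 to 2.30% of that sum in young mice and 68.4 to 73.7% in old mice. H2-T23 plus H2-T-ps came to 68.88, 74.09 and 60.21 in the young and 49.25, 50.15 and 65.44 in the old, and these groups overlapped. H2-T-ps was 0.904 to 3.27% of this second sum in the young and 33.4 to 47.1% in the old. The share of each sum that was assigned to the distal copy thus separated the age groups more widely than the sum did.

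**Figure D2:**
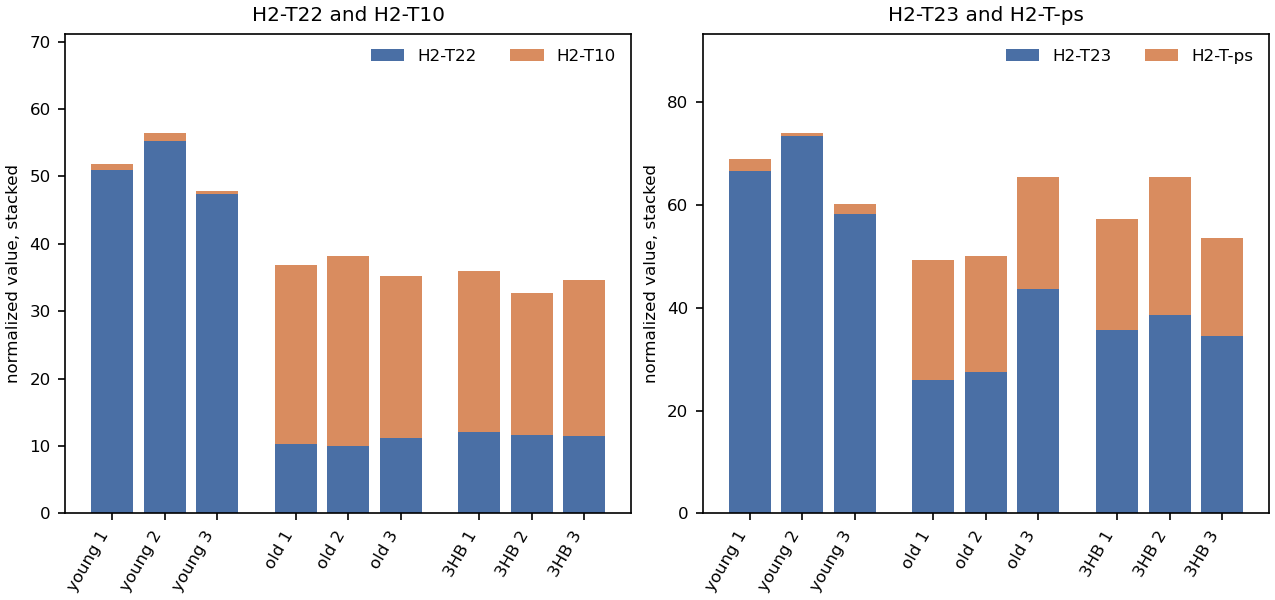
Stacked normalized values (y axis) of H2-T22 and H2-T10 (left) and of H2-T23 and H2-T-ps (right) in each mouse (x axis). The distal copy makes up at most 3.27% of a bar in young mice and at least 33.4% in the 6 mice of 20 months.

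A further gene of the distal pair, chosen after its values had been seen, showed this pattern too. BC023719, an antisense gene on the plus strand (chr17:36111426-36117121), overlaps 233 bases of H2-T-ps and 1246 bases of H2-T10. It was listed at 0 in all 3 young mice, at 7.39, 8.31 and 6.44 in the old mice and at 8.82, 6.38 and 7.46 in the 3HB mice. Whether reads were counted by strand is not given in the sources used here, so reads of BC023719 and of the genes opposite to it may not have been separable.

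With 3HB, the T genes stayed close to the level of the untreated old mice. H2-T22 was at 12.12, 11.60 and 11.41 in the 3HB mice, each above all 3 old mice, with a log2 difference from old of 0.15 (SE 0.048, p = 0.1 by a two-sided exact permutation test, which is the lowest p reachable with 3 mice against 3). H2-T10 was at 23.87, 21.15 and 23.26, each below the old mice, with a difference of -0.20 (SE 0.081, exact permutation p = 0.1). Without overlap as they were, these were differences of 1.11-fold and 1.15-fold. When the mice were scaled on the genes listed for age only, H2-T22 (0.08) and H2-T10 (-0.27) kept these directions and both overlapped between the groups. The share of H2-T10 in the sum with H2-T22, which no scaling of a mouse can change, was 68.4 to 73.7% in old and 64.6 to 67.1% in 3HB mice, without overlap (difference in means of -5.33 percentage points, SE 1.72).

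H2-T23 was at 35.65, 38.57 and 34.51 in the 3HB mice, inside the range of the old mice (difference 0.19, SE 0.23, exact permutation p = 0.4). H2-T-ps was at 21.72, 26.92 and 19.05, around the old values (difference -0.01, SE 0.14, exact permutation p = 0.9). In the T genes 3HB and young mice did not overlap either, in the direction seen between old and young. These genes were listed for young against old mice. The share of all listed genes that separate 3HB from young mice was not computed, so this is a description. H2-T-ps made up 35.6 to 41.1% of the sum with H2-T23 in 3HB mice, overlapping the old mice.

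The Q genes, in contrast to the T genes, all had a higher mean in old than in young mice and a lower one in 3HB mice. H2-Q4 had the highest level of the 5, at 11.79, 13.01 and 13.64 in the young mice, 29.87, 19.59 and 29.21 in the old mice and 18.19, 19.36 and 15.65 in the 3HB mice. Every old mouse lay above every young mouse and above every 3HB mouse, and every 3HB mouse lay above every young mouse. The log2 difference was 0.96 (SE 0.20) for old against young and -0.52 (SE 0.21, exact permutation p = 0.1) for 3HB against old. Its nearest values there were 19.36 in 3HB mouse 2 and 19.59 in old mouse 2.

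H2-Q10, the gene of the secreted molecule, was at 1.04, 0.73 and 1.02 in young, 4.48, 3.41 and 2.21 in old and 1.10, 1.88 and 0.61 in 3HB mice. The old mice stood apart from both other groups, with log2 differences of 1.15 (SE 0.24) from the young and, for 3HB against old, -0.998 (SE 0.33, exact permutation p = 0.1). The 3HB mice lay on both sides of the young mice. H2-Q4 and H2-Q10 were the members listed for 3HB, where 89.4% of the 113 listed genes did not overlap, so their 3HB differences are a description as well.

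The Qa-2 genes H2-Q6 and H2-Q7 varied more between mice. H2-Q6 was at 4.77, 1.02 and 6.32 in young, 26.88, 18.04 and 4.77 in old and 5.11, 11.92 and 2.72 in 3HB mice, and its groups overlapped in both comparisons. The differences were 1.72 (SE 0.89) with age and -1.13 (SE 0.86, exact permutation p = 0.3) with 3HB. H2-Q7 was at 2.97, 2.00 and 4.22 in young, 13.78, 8.26 and 6.35 in old and 4.84, 6.94 and 3.27 in 3HB mice. Of the Qa-2 genes it was the one without overlap between young and old mice (1.34, SE 0.38), and its 3HB mean was lower (-0.78, SE 0.39, exact permutation p = 0.2), with 3HB mouse 2 above old mouse 3. H2-Q2, at the proximal end of the cluster, followed these genes closely. It was at 1.30, 0.14 and 1.30 in young, 7.23, 5.30 and 2.03 in old and 0.91, 3.77 and 0.91 in 3HB mice. Its differences were 1.57 (SE 0.55) with age, without overlap, and -1.06 (SE 0.62, exact permutation p = 0.2) with 3HB, where the groups overlapped. With a pseudocount of 0.1 the age difference of H2-Q2 was 2.495, and with medians of the mice its 3HB difference was -1.72.

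The same mice were high and low in several Q genes. Old mouse 1 was the highest old mouse in all 5, and 3HB mouse 2 was the highest of its group in all 5. Old mouse 3 was the lowest old mouse in H2-Q2, H2-Q6, H2-Q7 and H2-Q10, while in H2-Q4 it was near the highest. Without old mouse 3, the 3HB difference of H2-Q6 was -1.79 instead of -1.13 (-0.66 without old mouse 1 and -0.71 without 3HB mouse 3), and that of H2-Q4 was -0.43 instead of -0.52. Without old mouse 1, the 3HB difference of H2-Q7 was -0.50 instead of -0.78. Old mouse 3 also had the lowest summed B cell and plasma cell markers among the 20-month mice (5 of 9 markers listed). They summed to 853.46 in that mouse, to 2982.99 and 3083.12 in the other old mice, to 2305.08 to 3438.51 in 3HB mice and to 40.26 to 212.82 in young mice. Most of the sum was Igkc (771.38 in old mouse 3). Ighm went the other way, as old mouse 3 (14.93) lay above old mouse 2 (7.86) and 3HB mouse 1 (11.49). The part of these cells in the Q values was not tested.

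H2-M2, a class Ib gene of the M region, was at 0.05, 0 and 0 in young mice and at 2.36, 0.94 and 1.67 in old mice. The 3HB mice had 1.02, 0.82 and 0.47 (difference from old -0.56, SE 0.27, exact permutation p = 0.2), and mouse 1 of this group lay above old mouse 2. All 6 mice of 20 months were above the young mice, at low levels. With a pseudocount of 0.1 in place of 1 the 3HB difference was -0.98. As 2 young mice were listed at 0, the log2 difference from young depends on the pseudocount (1.35 with 1 and 3.85 with 0.1) and gives no fold.

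Across the family, 8 of 10 genes had a higher mean in the old mice, where 69.7% of the 389 listed genes were higher. These were all 5 Q genes, H2-M2 and the distal T pair. In 3HB against old mice, 8 of 10 had a lower mean of log2(value + 1), among them H2-T-ps, which differed by -0.01 and had the same mean value of 22.6 in both groups. Among the 8 members listed for age only, which were not called on 3HB, 6 were lower on this scale with 3HB, H2-T-ps included, beside 41.2% of the 376 genes listed for age only, and 2 (H2-T10 and H2-T22) did not overlap, beside 11.7%. The median log2 difference with 3HB was -0.38 over these 8 members and 0.07 over the 376 genes. Both comparisons share the old mice, so a high value in an old mouse moves both differences in opposite directions.

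**Figure D3:**
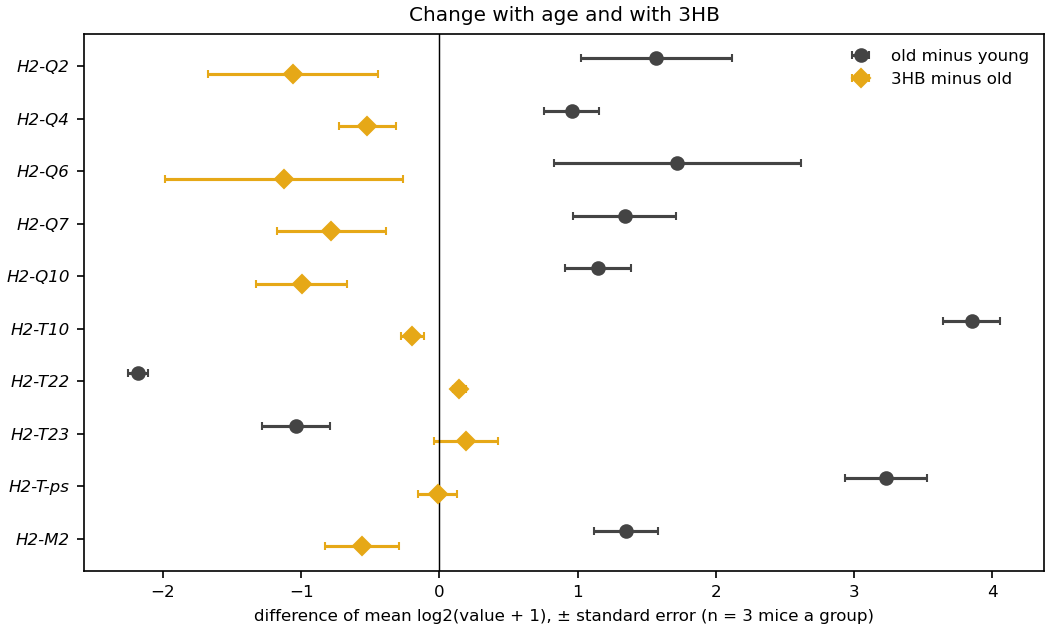
Difference of mean log2(value + 1) ± SE (x axis, n = 3 mice a group) for each gene (y axis), with circles for old minus young and diamonds for 3HB minus old. The 5 Q genes and H2-M2 have positive circles and negative diamonds, and the 4 T genes have diamonds between -0.20 and 0.19.

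Set side by side as families, the Q genes had a median log2 difference of 1.34 with age and -0.998 with 3HB. The T genes had medians of 1.10 and 0.07, and the first of these averages over 2 genes at -2.18 and -1.04 and 2 genes at 3.23 and 3.85. The summed Q value was 21.87, 16.90 and 26.50 in young, 82.24, 54.60 and 44.57 in old and 30.15, 43.87 and 23.16 in 3HB mice. The old mice stood above the young mice without overlap, and above the 3HB mice by 44.57 against 43.87 at the nearest. This last separation rested on H2-Q4, which was listed for 3HB and made up 65.5% of the sum in old mouse 3. Without H2-Q4 the sum of old mouse 3 (15.36) lay below that of 3HB mouse 2 (24.51). The mean log2 level of the Q genes also overlapped, at 2.72 to 3.83 in old and 1.93 to 2.96 in 3HB mice. The summed T value (mean ± SD, n = 3 each) was 119.8 ± 11.3 in young mice, 91.7 ± 7.87 in old mice and 93.3 ± 5.01 with 3HB, and old and 3HB mice overlapped.

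The mean log2 level of the Q genes minus that of the T genes (mean ± SD, n = 3 each) was -1.56 ± 0.45 in young mice, -1.18 ± 0.63 in old mice and -2.11 ± 0.46 with 3HB. It overlapped between young and old and between old and 3HB mice. A single T mean hides the split, since the change in this measure with age was 2.96 against H2-T22 and H2-T23 alone and -2.20 against H2-T10 and H2-T-ps alone.

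**Figure D4:**
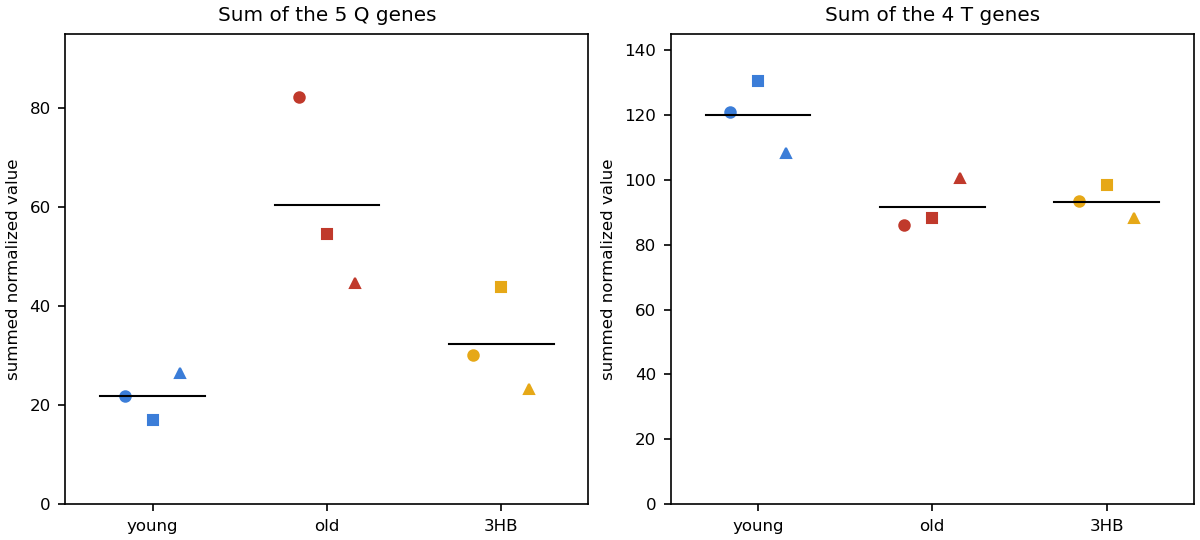
Summed normalized value (y axis, from 0) of the 5 Q genes (left) and the 4 T genes (right) in each mouse, by group (x axis), with lines for group means and circles, squares and triangles for mice 1, 2 and 3. The Q sum of the old mice (44.57 to 82.24) lies above young and 3HB mice, and the T sum of the young mice (108.09 to 130.57) lies above both groups of 20 months.

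Along the chromosome the differences with age were 1.57, 0.96, 1.72, 1.34 and 1.15 from H2-Q2 to H2-Q10, then -1.04 and -2.18 for the proximal T pair and 3.23 and 3.85 for the distal T pair.

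**Figure D5:**
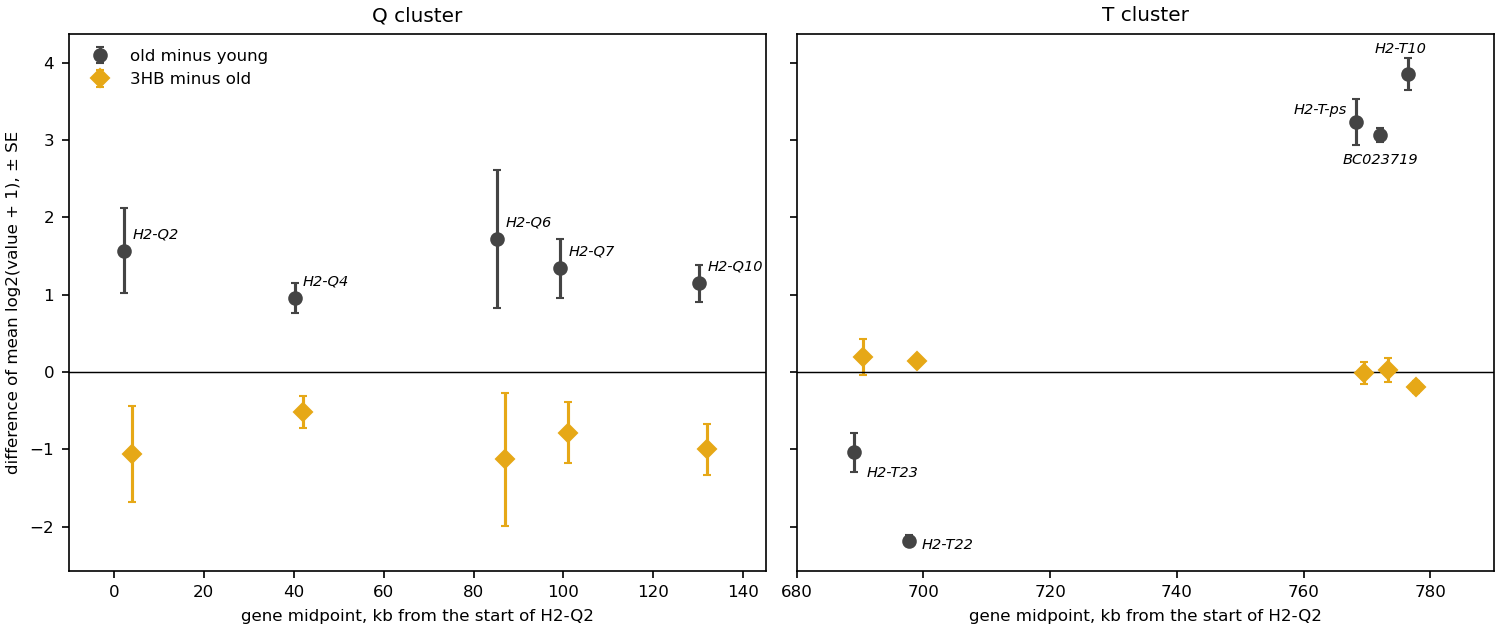
Difference of mean log2(value + 1) ± SE (y axis) against the distance of each gene's midpoint from the start of H2-Q2 (x axis, kb), for the Q genes (left) and the T genes with the antisense gene BC023719 (right). Circles are old minus young, and diamonds (moved slightly to the right) are 3HB minus old. The circles change sign between the proximal and the distal T pair.

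Within the old and within the 3HB group, the spread between mice was widest in 4 of the Q genes and in H2-M2. The coefficient of variation (SD as a share of the mean, n = 3) of H2-Q2, H2-Q6, H2-Q7, H2-Q10 and H2-M2 was between 33.7 and 67.2% in old mice and between 36.2 and 88.6% in 3HB mice. That of H2-T22 was 5.48% in old and 3.14% with 3HB, and that of H2-T10 was 7.72 and 6.27%. The families were not apart throughout, since H2-T23 (30.0%) varied more than H2-Q4 (21.9%) in old mice and H2-T-ps (17.7%) more than H2-Q4 (10.7%) in 3HB mice.

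By level in young mice, H2-T23 came first (66.1 ± 7.56), followed by H2-T22 (51.2 ± 3.88) and H2-Q4 (12.8 ± 0.94), each apart from the next without overlap (mean ± SD, n = 3). H2-Q6, H2-Q7, H2-T-ps, H2-Q10, H2-T10 and H2-Q2 followed, each overlapping its neighbour in this order, and H2-M2 was last. In old mice H2-T23 (32.4 ± 9.72) was still first, but every gene overlapped the next one, and H2-T10, H2-Q4 and H2-T-ps came before H2-Q6 and H2-T22. In 3HB mice H2-T23 (36.2 ± 2.09) again stood alone at the top. H2-T10 (22.8 ± 1.43) and H2-T-ps (22.6 ± 4.0) came next, and H2-Q4 (17.7 ± 1.90) stood above H2-T22 (11.7 ± 0.37) without overlap.

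Promoters are shown for members whose values ran together or apart. RefSeq promoters (GRCm38.p6, 250 bases before and 50 after the start of the gene) matched 9 of the 10 members, all but H2-T10. H2-Q6 and H2-Q7 were identical at 254 of 260 aligned bases (97.7%), and H2-T23 and H2-T-ps at 271 of 282 (96.1%), and the latter differed in opposite directions between young and old mice. Each sequence reads 5′ to 3′ on the gene's own strand. Capitals mark the matches, on either strand, to a kappaB-like motif (GGGGATTNCC), an interferon response element (GAAANNGAAA) or a CCAAT box (CCAAT), and no matches of different motifs overlap. The windows are, in order, chr17:35379367-35379666 (plus), chr17:35424600-35424899 (plus), chr17:36042693-36042992 (minus), chr17:36032652-36032951 (minus) and chr17:36111627-36111926 (minus).
H2-Q4 promoter: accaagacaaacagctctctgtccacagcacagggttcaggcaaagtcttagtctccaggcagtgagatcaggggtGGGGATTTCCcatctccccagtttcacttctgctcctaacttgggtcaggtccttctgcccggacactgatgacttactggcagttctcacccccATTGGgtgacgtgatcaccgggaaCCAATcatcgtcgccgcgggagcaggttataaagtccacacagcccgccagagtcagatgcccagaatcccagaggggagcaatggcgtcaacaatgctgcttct
H2-Q6 promoter: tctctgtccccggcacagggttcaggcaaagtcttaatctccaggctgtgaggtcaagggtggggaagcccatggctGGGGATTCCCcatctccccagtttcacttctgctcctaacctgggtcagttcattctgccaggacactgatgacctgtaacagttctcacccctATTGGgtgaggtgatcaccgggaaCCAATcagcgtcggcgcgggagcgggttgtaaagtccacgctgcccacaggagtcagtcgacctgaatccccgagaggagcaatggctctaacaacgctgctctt
H2-T22 promoter: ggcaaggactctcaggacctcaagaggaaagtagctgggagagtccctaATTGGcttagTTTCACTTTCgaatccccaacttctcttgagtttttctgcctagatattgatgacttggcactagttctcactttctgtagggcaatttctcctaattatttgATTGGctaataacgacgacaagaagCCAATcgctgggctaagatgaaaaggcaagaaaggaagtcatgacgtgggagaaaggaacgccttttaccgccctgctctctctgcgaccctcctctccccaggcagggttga
H2-T23 promoter: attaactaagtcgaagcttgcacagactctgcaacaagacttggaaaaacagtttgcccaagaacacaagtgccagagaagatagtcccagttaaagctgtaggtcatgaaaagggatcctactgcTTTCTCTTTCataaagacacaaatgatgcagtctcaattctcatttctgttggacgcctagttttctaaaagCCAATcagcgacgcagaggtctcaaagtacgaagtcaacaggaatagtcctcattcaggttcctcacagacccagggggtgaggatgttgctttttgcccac
H2-T-ps promoter: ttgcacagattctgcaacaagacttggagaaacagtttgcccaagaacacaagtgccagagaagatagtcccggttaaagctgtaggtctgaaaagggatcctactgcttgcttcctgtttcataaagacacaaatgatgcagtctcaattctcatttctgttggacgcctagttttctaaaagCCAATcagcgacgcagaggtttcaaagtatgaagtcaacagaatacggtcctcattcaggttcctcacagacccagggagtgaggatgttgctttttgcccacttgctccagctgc

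The kappaB-like letters were found in H2-Q4, H2-Q6 and H2-Q7 and in 0.268% of all 32851 promoters of this length. The exact letters of the interferon element were found in H2-T22 and H2-T23 and in 3.44% of promoters. Variants of the element were not searched for. The stretch tttcacttct, in lower case in the H2-Q4 and H2-Q6 promoters above, resembles these letters and was not counted. The Q promoters are therefore not shown to lack such an element. The CCAAT box was found in 8 of the 9 promoters and in 37.4% of all. In H2-T-ps the window held a CCAAT box and no exact match to the interferon letters that its near copy H2-T23 held. The motifs were chosen after these promoters had been seen, and a match is a description of letters.

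Of 20 partners of class I presentation, 4 were listed, and all 4 had a higher mean in old than in young mice and a lower mean in 3HB than in old mice. Tap2, a subunit of the transporter that carries peptides into the endoplasmic reticulum, was listed for age alone (69.7% of the genes listed for age were higher in old mice, and 41.2% of those listed for age only were lower with 3HB), at 9.26, 7.52 and 9.29 in young, 18.08, 13.43 and 24.52 in old and 11.19, 15.83 and 10.24 in 3HB mice. Tapbp (tapasin, which loads peptides on class I molecules) and the immunoproteasome subunits Psmb8 and Psmb10 were listed for 3HB alone, where 61.9% of the listed genes were lower. Their log2 differences for 3HB against old were -0.45 (SE 0.16), -0.90 (SE 0.33) and -0.54 (SE 0.15), each without overlap, as were 89.4% of the genes listed for 3HB. Between young and old mice Tapbp and Psmb10 overlapped and Psmb8 did not. Psmb8 was at 14.70, 10.71 and 12.63 in young, 30.65, 16.12 and 34.03 in old and 12.97, 14.33 and 12.57 in 3HB mice. The classical genes H2-K1 and H2-D1, B2m and Tap1 were not in either table, and their levels were not analysed here.

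Class II genes and interferon-inducible genes were looked up as well, and for these lists the backgrounds are 69.7% of genes listed for age higher in old mice and 61.9% of genes listed for 3HB lower with it. Of 12 MHC class II genes, 6 were listed for age, all higher in old mice, and 4 were listed for 3HB, all lower with it. Cd74, the invariant chain, was at 448.84, 223.83 and 481.07 in old and 166.79, 197.86 and 188.97 in 3HB mice. Of 24 interferon-inducible GTPases and chemokines, 11 were listed for age (all higher in old mice) and 6 for 3HB (all lower). The median log2 difference was 1.15 for those 11, beside 1.14 over all 389 genes listed for age, and -0.95 for those 6, beside -0.42 over the 113 listed for 3HB. Old mouse 2 was the lowest old mouse in the sums of the class II list (447.94) and the interferon list (25.33), as it was in H2-Q4, whereas in H2-Q2, H2-Q6, H2-Q7 and H2-Q10 the lowest was old mouse 3.

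Of 18 genes of receptors for Q and T molecules and of the cells that carry them, Cd8a alone was listed. It encodes the coreceptor that also binds class I molecules on T cells, and it was at 4.22, 0.47 and 5.37 in young, 0.80, 0.51 and 0.33 in old and 0.71, 0.47 and 0.94 in 3HB mice, with overlap of young and old. It was also the one gene listed of 10 T and NK cell markers. Of 11 macrophage and dendritic cell markers, Lyz2 was listed, at 7.54 to 8.69 in young, 22.92 to 72.01 in old and 34.25 to 42.87 in 3HB mice. None of 5 endothelial markers was listed. The part of these cell types in the class I values was not tested, and the age of the mice and any cohort or library batch cannot be told apart.

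The likeness of profiles over the 9 mice was described by Pearson's r of log2(value + 1) with 440 listed genes outside the family. These mice fall into groups for which the genes had been called, so high values are given by the choice of genes. Most like the mean of the Q genes were Gucy1a1 (r = 0.904), Igkv4-54 (r = 0.866), Pigz (r = 0.865), Cybb (r = 0.845) and Gbp5 (r = 0.827). The mean of the T genes follows the distal pair. Most like it were Gm48362 (r = 0.995), Tagap (r = 0.989), Gm47939 (r = 0.985) and Ncoa4-ps (r = 0.982). For H2-T22 and H2-T23 alone, a choice made after the values had been seen, Ahcyl (r = 0.984) and Pla2g2c (r = 0.976) came first. Within the family, r was 0.968 between H2-Q2 and H2-Q6, the highest of the Q pairs. H2-Q4 had r of 0.599 with H2-Q6, the lowest of the Q pairs. Its r was 0.689 with H2-Q2, 0.796 with H2-Q10 and 0.846 with H2-Q7. Between H2-T10 and H2-T22 r was -0.989.

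The annotation in the deposited tables placed 8 of the 10 genes in the KEGG pathways of cellular senescence and of antigen presentation. H2-T10 and H2-T-ps were in neither. All 5 Q genes and none of the other members carried the GO term for binding to the peptide transporter TAP.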

How the data were processed

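RNA from kidneys of 9 mice was sequenced as paired-end reads. The submitters' processing notes name CASAVA, HISAT2, StringTie and GRCm38. The normalized values that the authors deposited, rounded to 2 decimals, cover in 2 tables the genes they had called, 389 for young against old and 113 for 3HB against old. The test and threshold behind these calls are not given in the sources used here. As genes without a call were not in them, no model could be fitted across genes, and the form planned for such tables was used.

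Samples were grouped by their titles. A log2 difference is the difference between group means of log2(value + 1), with the SE from both SDs, and it understates changes of low values. P-values come from two-sided exact permutation tests over the 20 ways to divide 6 mice (smallest p 0.1). Nothing says beyond the titles that mice came from separate litters. Alternatives covered the pseudocount (0.1), a highest group mean of at least 1, medians, scaling of each mouse by its median ratio over genes listed only for the other comparison, and leaving out each mouse.

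The genes named are all 10 members, list genes found in a table and the 5 genes most like the Q and the T mean, with a mean of at least 1 in some group. One gene that this rule names is not reported here. Members and lists were chosen with earlier results of these data known. Genes matched GENCODE release 21 by identifier. Transcripts and promoters were aligned with mafft 7.526. Tests were run on simulated data first. Software was Python 3.11.15 with matplotlib 3.10.9, scipy 1.17.1, pandas 2.3.3 and numpy 2.4.6.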

Additional observations from a re-analysis of the deposited data

How the results depend on the processing

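The counts of members higher with age (8 of 10) and lower with 3HB (8 of 10) were the same with a pseudocount of 0.1, with medians of the mice, with scaling and with the limit of 1 on the group mean. Without each mouse in turn they were 8 in every case with age, 7 to 8 with 3HB, and 7 to 8 for 3HB above young. H2-T-ps lay so near 0 with 3HB that its difference ran from -0.14 to 0.10 without single mice. For 3HB against young, H2-Q2 turned to -0.27 with medians, where the count above young was 7, and H2-Q10 ran from -0.066 to 0.35 without single mice. Scaling moved the level of old against young mice by 0.27 on the log2 scale and 3HB against old by 0.07. After it 9 members still did not overlap with age, and with 3HB these were H2-Q4, H2-Q7 and H2-Q10. The genes used for scaling had been called for a contrast that shares the old mice, so they are not a neutral reference. The share of all listed genes without overlap after scaling was not computed. H2-Q4 and H2-Q10 had also been listed for 3HB. The change in Q minus T was 0.38 with age and ran from 0.08 without old mouse 1 to 0.71 without old mouse 3. With 3HB it was -0.93 and ran from -1.26 to -0.63. The choice of T genes, added after seeing the data, made the age value 2.96 (H2-T22 and H2-T23) or -2.20 (H2-T10 and H2-T-ps). With the replicate block, the counts were 8 and 8 and the smallest exact sign-flip p was 0.25. Whether the numbers paired the mice is not known. The deviations of same-numbered mice from their group means were correlated over 489 genes. The r was -0.07 to 0.16 between young and old and -0.24 to -0.03 between old and 3HB. Mice with different numbers were not compared, so these values cannot decide it. The limit of 1 removed no member and the block leaves the differences as they are. Of 260 member values under the other alternatives, 241 moved by less than the spread between mice, 14 moved by more and 5 changed sign. Of the 14, 11 came from the pseudocount of 0.1. H2-T23 with 3HB was 0.36 with medians and 0.12 with scaling instead of 0.19, and it ran from 0.061 without old mouse 1 to 0.42 without old mouse 3. Depth is unknown, so nothing can be said of counting error in the low values of H2-M2, H2-Q2 and H2-Q10.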

Other observations

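H2-Q4 differed from the other Q genes in the listed genes that followed it over the 9 mice, a comparison added after the values had been seen. Most like H2-Q4 were Fgg (r = 0.948), Aoc1 (r = 0.946) and the interferon-inducible genes Gbp3 (r = 0.944), Ubd (r = 0.94) and Tgtp2 (r = 0.938). Most like the mean of H2-Q2, H2-Q6, H2-Q7 and H2-Q10 were Gucy1a1 (r = 0.882), Igkv4-54 (r = 0.844), Pigz (r = 0.838), Cybb (r = 0.821) and Igkv1-122 (r = 0.793). No gene was in both groups of 5. These are correlations over 9 mice among 440 genes chosen for group differences, and they carry no test.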
